A study of Arabidopsis thaliana with 10 samples.

Results

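COR27 (AT5G42900) and the genes AT4G33980, AT1G56300 and AT3G62550 were followed array by array in Arabidopsis thaliana seedlings. These 4 genes were chosen by their intensities on these same arrays, where they moved together, with a rise in the phyA mutant and a gap between the gun1gun5_D replicates. Their levels and differences are therefore given as a description with no test. Each gene had 1 probe set, so the group held 4 of the 22810 probe sets of the Affymetrix ATH1 array and 4 of the 13513 that are listed with 1 gene, which stand for 13355 genes.

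The study asked how far-red light given before white light, a treatment meant to block chloroplast development, alters seedling transcripts. Each of the 10 arrays held RNA of whole young seedlings, with cotyledons, hypocotyl and primary roots, from pools of 300 plants kept at 22 °C in continuous light. FR marks seedlings that had far-red light before white light. D marks seedlings that had none and are named as D-pretreated, with no label saying what D stands for. An FR minus D difference therefore compares 2 named pretreatments, rather than far-red light against no pretreatment. The 6 groups were WT_FR and WT_D of Col-0 wild type, gun1gun5_FR and gun1gun5_D of a double mutant, each with 2 arrays, and phyA_FR and phyA_D of a phyA-null mutant, each with 1 array. All were grown on MandS medium without sucrose, except that both WT_D samples had 1.5% sucrose and WT_D replicate 2 also had 5 µM norflurazon, which blocks carotenoid synthesis and bleaches plastids in the light. In wild type the pretreatment and the medium therefore cannot be told apart, while both gun1gun5 groups are listed with 1 medium. Whether replicates came from separate cultures is not stated, so p-values measure only the spread between these samples, which may be technical. No label names a cold treatment.

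COR27 is a cold-regulated gene under control of the circadian clock, and its product represses evening genes of the clock and takes part in light signalling. AT4G33980 is its relative, called COR28 in the literature, with a similar role. AT1G56300 encodes a protein with a J-domain, the part by which DnaJ-type co-chaperones call on Hsp70 to fold other proteins, and AT3G62550 encodes a protein of the universal stress protein type. Phytochrome A is the receptor for far-red light, which the phyA mutant lacks. GUN1 and GUN5 take part in plastid-to-nucleus signalling, and GUN5 is also a subunit of the enzyme that puts magnesium into the chlorophyll precursor.

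COR27 read 222.6 and 249.5 in WT_FR (replicates 1 and 2, linear probe-set intensity), 28.7 and 17.6 in WT_D, 567.8 and 506.3 in gun1gun5_FR, 232.9 and 44.6 in gun1gun5_D, 165.2 in phyA_FR and 17.6 in phyA_D. Every FR array was thus above every D array of its own genotype, and the highest reading was 32.3 times the lowest. The gun1gun5_D arrays stood far apart: replicate 1 lay between both WT_FR readings, while replicate 2 lay closer to WT_D.

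AT4G33980 read 105.1 and 108.4 in WT_FR, 33.7 and 18.5 in WT_D, 282.2 and 226.5 in gun1gun5_FR, 127.6 and 25.7 in gun1gun5_D, 75.4 in phyA_FR and 16.7 in phyA_D. Its highest reading was 16.9 times its lowest, again between gun1gun5_FR and phyA_D. Replicate 2 of gun1gun5_D lay within the WT_D range, and replicate 1 exceeded both WT_FR arrays.

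AT1G56300 read 473.0 and 566.9 in WT_FR, 139.6 and 80.2 in WT_D, 747.6 and 753.8 in gun1gun5_FR, 327.6 and 124.8 in gun1gun5_D, 328.6 in phyA_FR and 103.8 in phyA_D. The FR arrays of each genotype were again the higher ones, over a range of 9.40 times. For this J-domain gene replicate 1 of gun1gun5_D remained below both WT_FR arrays and level with phyA_FR.

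AT3G62550 read 273.5 and 299.8 in WT_FR, 76.3 and 53.9 in WT_D, 321.6 and 320.0 in gun1gun5_FR, 304.0 and 120.0 in gun1gun5_D, 284.2 in phyA_FR and 103.3 in phyA_D. Its range, 5.97 times, was the narrowest of the 4 genes, and the FR arrays of the 3 genotypes lay close together. Only for this gene did phyA_D exceed both WT_D arrays, and only here did gun1gun5_D replicate 1 come near gun1gun5_FR.

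**Figure D1:**
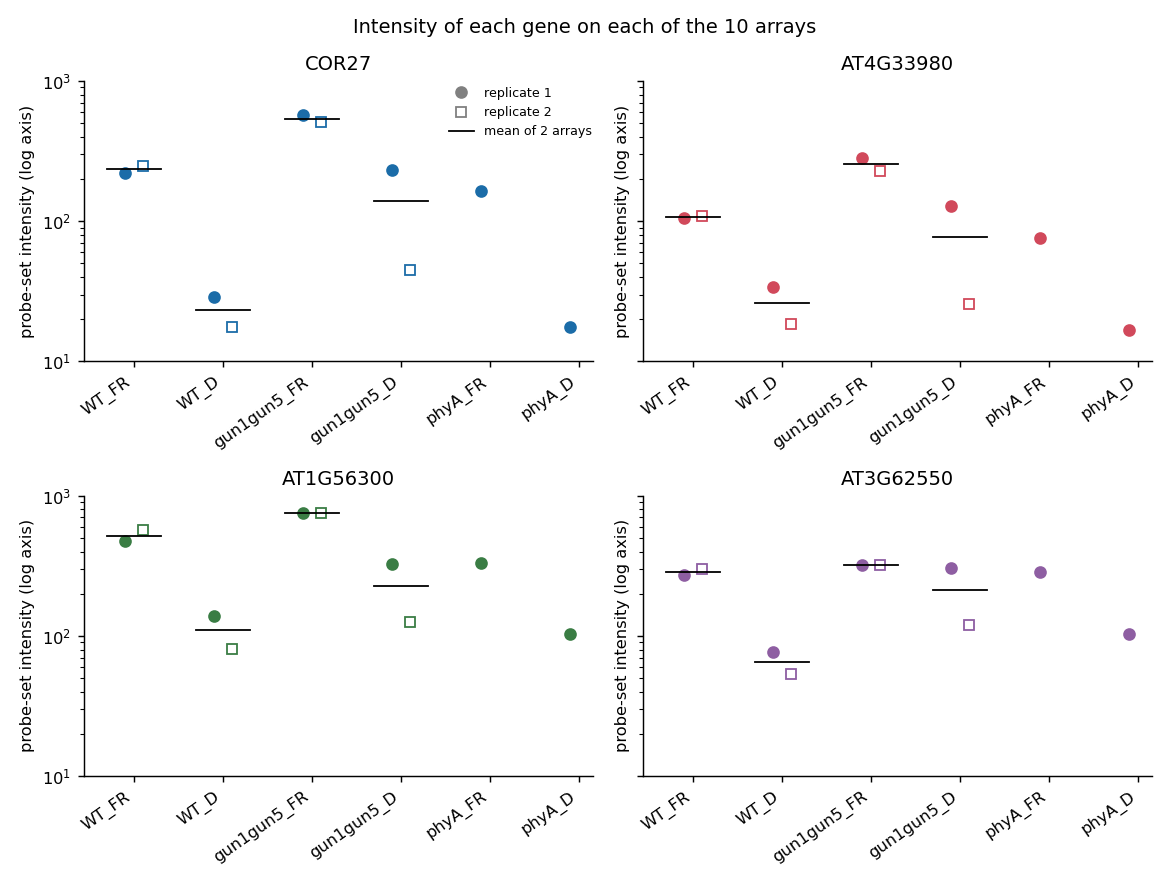
Probe-set intensity (log axis) of COR27, AT4G33980, AT1G56300 and AT3G62550 on each of the 10 arrays, by group; filled circles are replicate 1, open squares replicate 2, and the line is the mean of 2 arrays. The FR arrays lie above the D arrays of the same genotype in all 4 panels, and the gun1gun5_D replicates are the pair farthest apart, at 232.9 and 44.6 for COR27.

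The group means gave the following order for COR27: gun1gun5_FR 537 ± 43.5 (SD, n = 2), WT_FR 236 ± 19.0 (n = 2), phyA_FR 165.2 (1 array), gun1gun5_D 139 ± 133 (n = 2), WT_D 23.2 ± 7.85 (n = 2) and phyA_D 17.6 (1 array). Of the neighbours in this order, phyA_FR and gun1gun5_D overlapped, as did WT_D and phyA_D, and the other neighbours were separated by every array. For AT4G33980 the order was the same except that gun1gun5_D (76.7 ± 72.1) and phyA_FR (75.4), which overlapped, traded places. Its gun1gun5_FR mean was 254 ± 39.4, its WT_FR mean 107 ± 2.33, which overlapped with gun1gun5_D, and its WT_D mean 26.1 ± 10.8. The order of COR27 was also that of AT1G56300, with 751 ± 4.38 in gun1gun5_FR, 520 ± 66.4 in WT_FR, 226 ± 143 in gun1gun5_D and 110 ± 42.0 in WT_D, of which the last overlapped with its neighbours on both sides. AT3G62550 had 321 ± 1.13 in gun1gun5_FR, 287 ± 18.6 in WT_FR, 212 ± 130 in gun1gun5_D and 65.1 ± 15.8 in WT_D, with WT_FR overlapping phyA_FR and phyA_FR overlapping gun1gun5_D, and its phyA_D reading of 103.3 came before WT_D in the order. All 4 genes were thus highest in gun1gun5_FR on every array, but by unequal margins: the gun1gun5_FR mean was 2.28 times the WT_FR mean for COR27, 2.38 times for AT4G33980, 1.44 times for AT1G56300 and 1.12 times for AT3G62550.

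In wild type, all 4 transcripts were higher after far-red light. The ratio of mean intensities was 10.2 for COR27, 4.09 for AT4G33980, 4.73 for AT1G56300 and 4.40 for AT3G62550. Differences on the log2 scale were taken after 16 was added to each value, which shrinks those of dim genes. Their standard errors (SE) come from limma's fit over all tested probe sets. For each gene the SE pools the replicate spread of all groups, so the wide gun1gun5_D gap enters it in every comparison. It is thus the same for COR27 in wild type and in gun1gun5 (0.47), and is not the spread of either comparison alone. On that scale COR27 differed by 2.70 ± 0.47, the sixth highest value of 13647 tested probe sets. The differences of AT4G33980, AT1G56300 and AT3G62550 were 1.57 ± 0.43, 2.13 ± 0.35 and 1.91 ± 0.31, which ranked 73, 26 and 39 from the highest. The median of all tested probe sets was -0.01, with the 5th and 95th percentiles at -0.80 and 0.66. For the dim COR27 and AT4G33980 the value depended on the added number, at 3.33 and 2.05 with 1 added and 1.79 and 0.93 with 64 added. WT_D replicate 2, the sample listed with norflurazon, read below replicate 1 for all 4 genes, by 0.41 (COR27), 0.53 (AT4G33980), 0.69 (AT1G56300) and 0.40 (AT3G62550) on the log2 scale, and the part of norflurazon in this was not tested.

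In gun1gun5, on a single medium, COR27, AT4G33980 and AT1G56300 were again far higher after far-red light. The ratio of means was 3.87 for COR27, 3.32 for AT4G33980 and 3.32 for AT1G56300, but 1.51 for AT3G62550. The log2 differences were 2.17 ± 0.47, 1.80 ± 0.43, 1.80 ± 0.35 and 0.69 ± 0.31, in the same order of genes. COR27 ranked 3 from the highest, AT1G56300 ranked 7 and AT4G33980 ranked 8, whereas AT3G62550 ranked 351, and the 5th and 95th percentiles of all tested probe sets were -0.65 and 0.55. These sizes rested on which gun1gun5_D array was used. Set against replicate 2 alone, the difference was 3.19 for COR27, 2.69 for AT4G33980, 2.45 for AT1G56300 and 1.31 for AT3G62550. Set against replicate 1 alone, it was 1.15, 0.91, 1.16 and 0.07 for these genes.

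The response in gun1gun5 minus that in wild type was -0.53 ± 0.67 for COR27, 0.23 ± 0.61 for AT4G33980 and -0.32 ± 0.49 for AT1G56300. Each of these was within its pooled SE of 0, and each changed sign when a single gun1gun5_D array was left out. The value became 0.49 for COR27 and 0.32 for AT1G56300 without replicate 1, and -0.66 for AT4G33980 without replicate 2. Leaving out a WT_D array also turned AT1G56300, to 0.02 without replicate 2, and AT4G33980, to -0.03 without replicate 1. For AT3G62550 the difference was -1.22 ± 0.44, at -0.60 without gun1gun5_D replicate 1 and -1.84 without replicate 2, so its sign did not hang on either array. The WT_D arrays with their sucrose enter these values too.

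Without far-red light, the gun1gun5 mutant had higher mean levels than wild type for all 4 genes. The ratio of gun1gun5_D to WT_D was 5.99 for COR27, 2.94 for AT4G33980, 2.06 for AT1G56300 and 3.26 for AT3G62550, and the medium differed between these groups along with the genotype. The log2 differences of COR27 and AT3G62550 were 1.66 ± 0.47 and 1.38 ± 0.31, which ranked 5 and 13 from the highest. Those of AT4G33980 and AT1G56300 were 0.90 ± 0.43 and 0.85 ± 0.35, which ranked 91 and 112. Without gun1gun5_D replicate 1 the values were 0.64 for COR27, 0.01 for AT4G33980, 0.20 for AT1G56300 and 0.76 for AT3G62550. Without replicate 2 they were 2.68, 1.79, 1.49 and 1.99, so for AT4G33980 the excess was near 0 without that 1 array.

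In the phyA mutant, which lacks the far-red receptor, the FR array also read higher than the D array for all 4 genes. With 1 array a group this rise has no replicate check. The ratio was 9.39 for COR27 (165.2 against 17.6), 4.52 for AT4G33980, 3.17 for AT1G56300 and 2.75 for AT3G62550. On the log2 scale the differences were 2.43, 1.48, 1.52 and 1.33, which ranked 1, 7, 5 and 13 from the highest of the tested probe sets. All 4 genes were at least 2-fold higher on that scale, where 0.249% of the tested probe sets were, a count that the choice of these genes fixes. With 64 added in place of 16, AT4G33980 (0.79) was under 2-fold and COR27 was at 1.49, and with 1 added they were at 2.11 and 3.16. The 5th and 95th percentiles of all tested probe sets were -0.39 and 0.40, narrower than in wild type or gun1gun5. For comparison, the wild-type differences of the same genes were 2.70, 1.57, 2.13 and 1.91 on this scale. The FR levels themselves were lower in phyA than in wild type for 3 of the genes, WT_FR being 1.43 times phyA_FR for COR27, 1.42 times for AT4G33980 and 1.58 times for AT1G56300, but 1.01 times for AT3G62550. The ratio of 3' to 5' GAPDH probe sets, a sign of RNA quality, was 1.67 in phyA_FR and 1.34 in phyA_D, against 0.925 to 1.27 on the other arrays. Its part in the phyA values was not tested.

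**Figure D2:**
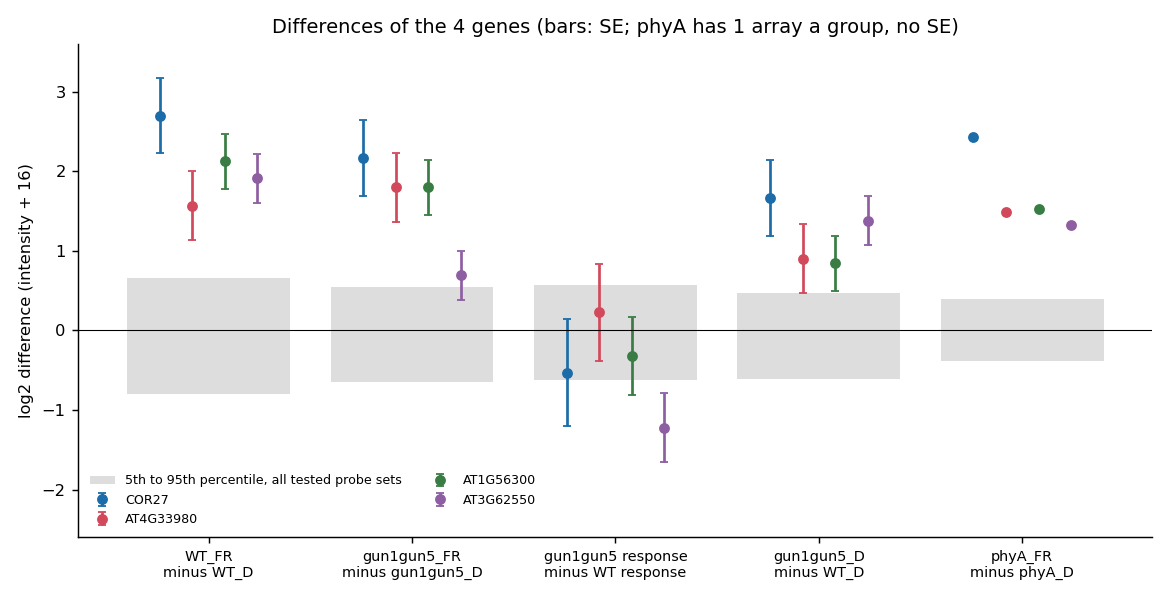
Log2 differences (intensity + 16) of the 4 genes in 5 comparisons, with SE bars where groups had 2 arrays; the grey band spans the 5th to 95th percentile of all tested probe sets. COR27 is at 2.70 in wild type, 2.17 in gun1gun5 and 2.43 in phyA, and AT3G62550 alone of the 4 lies below the band for the difference between the gun1gun5 and wild-type responses, at -1.22.

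The gap between the gun1gun5_D replicates was among the widest on these arrays. Replicate 1 read 5.22 times replicate 2 for COR27, 4.97 times for AT4G33980, 2.63 times for AT1G56300 and 2.53 times for AT3G62550. On the log2 scale COR27 differed by 2.04, the highest value for replicate 1 over replicate 2 among tested probe sets and the second in absolute size. AT4G33980 (1.78), AT1G56300 (1.29) and AT3G62550 (1.23) ranked 3, 8 and 12 among those higher in replicate 1. The SD over all tested probe sets was 0.262, and the central 95% of them lay between -0.54 and 0.51. All 4 genes were at least 2-fold higher in replicate 1, where 0.256% of tested probe sets (35) were, and here too the choice of the genes fixes the count.

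The gap was not matched in the other groups. In gun1gun5_FR the 4 genes differed between replicates by -0.01 to 0.30, and in WT_FR by -0.25 to -0.04, where replicate 2 was the higher one for all 4. In WT_D they differed by 0.40 to 0.69 with replicate 1 higher.

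**Figure D3:**
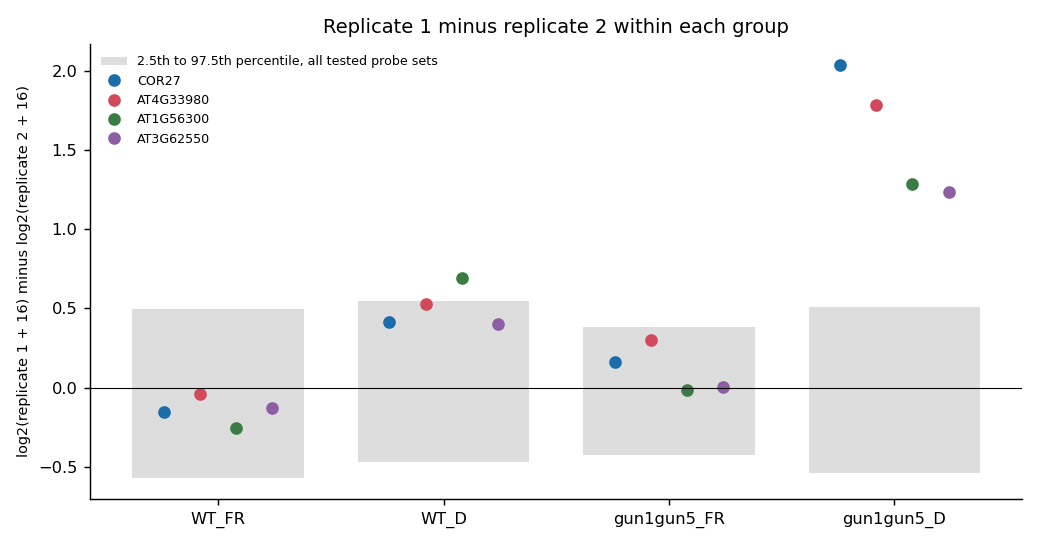
Replicate 1 minus replicate 2, as a difference of log2(intensity + 16), for the 4 genes in the 4 groups with 2 arrays; the grey band spans the central 95% of all tested probe sets. In gun1gun5_D all 4 genes lie above the band, from 1.23 for AT3G62550 to 2.04 for COR27. In WT_FR and gun1gun5_FR all lie inside it, and in WT_D AT1G56300 alone lies above it, at 0.69.

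Other probe sets that responded in wild type leaned the same way between the gun1gun5_D replicates, by far smaller amounts. Of 1323 probe sets called higher in WT_FR, the 4 genes left out, 58.8% read higher in gun1gun5_D replicate 1 than in replicate 2, against 51.8% of all tested probe sets. Their median gap was 0.04, and of the 1726 called lower in WT_FR 65.9% read lower in replicate 1, against 47.9% of all tested probe sets, with a median of -0.08. The 25S rRNA control probe set read 376.7 in gun1gun5_D replicate 1 and 3003.8 in replicate 2. In the same order of replicates it read 494.1 and 2367.6 in WT_FR, 775.5 and 314.8 in WT_D, and 903.7 and 1790.6 in gun1gun5_FR. The GAPDH ratio was 1.27 and 1.26 in the gun1gun5_D replicates. The part of the rRNA control in the gap was not tested.

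Over the 10 arrays, the log2 levels of AT4G33980, AT1G56300 and AT3G62550 correlated with those of COR27 at Pearson's r of 0.985, 0.981 and 0.942. They ranked 2, 3 and 28 among the 13646 other tested probe sets, of which 145 (1.06%) reached 0.9. The genes were chosen as moving together on these same arrays, so high correlations and ranks follow from that choice. Among the 4 genes, the lowest of the pairwise correlations was 0.888, between AT4G33980 and AT3G62550. These values describe 10 arrays that fall into 6 groups and share the FR difference and the gun1gun5_D gap. The probe set ranked first, at 0.986, is not listed with a gene, as is the case for 7 of the 15 most alike. Of all 13647 tested probe sets 7379 are listed with 1 gene, so probe sets without a single listed gene were common.

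Apart from the 4 genes, the 10 single-gene probe sets most like COR27 had r between 0.949 and 0.971. In order they were AT1G49650, AT1G75370, AT1G51310, OTP84 (a pentatricopeptide-repeat protein that edits plastid RNA), AT1G73090, AT1G09320, AT1G70820, AT2G28450, AT4G32910 and AT3G56680. Likeness in shape went with much smaller changes in most of them: their range over the arrays was between 0.41 (AT1G09320) and 2.13 (AT1G70820) on the log2 scale, where COR27 spanned 4.12. AT1G70820 came closest in size. It read 112.6 and 84.9 in WT_FR, 48.6 and 29.5 in WT_D, 183.5 and 161.4 in gun1gun5_FR, 153.4 and 32.8 in gun1gun5_D, 88.0 in phyA_FR and 32.8 in phyA_D. It shared the gap between the gun1gun5_D replicates, at 1.80 on the log2 scale, while the other 9 had gaps of 0.25 to 0.62. AT4G32910 showed the pattern without a wide gap, at 299.2 and 260.2 in WT_FR, 120.8 and 119.7 in WT_D, 455.3 and 416.8 in gun1gun5_FR, 266.5 and 200.8 in gun1gun5_D, 190.1 in phyA_FR and 136.5 in phyA_D. Both gun1gun5_D arrays of AT4G32910 lay above both WT_D arrays and below both gun1gun5_FR arrays.

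**Figure D4:**
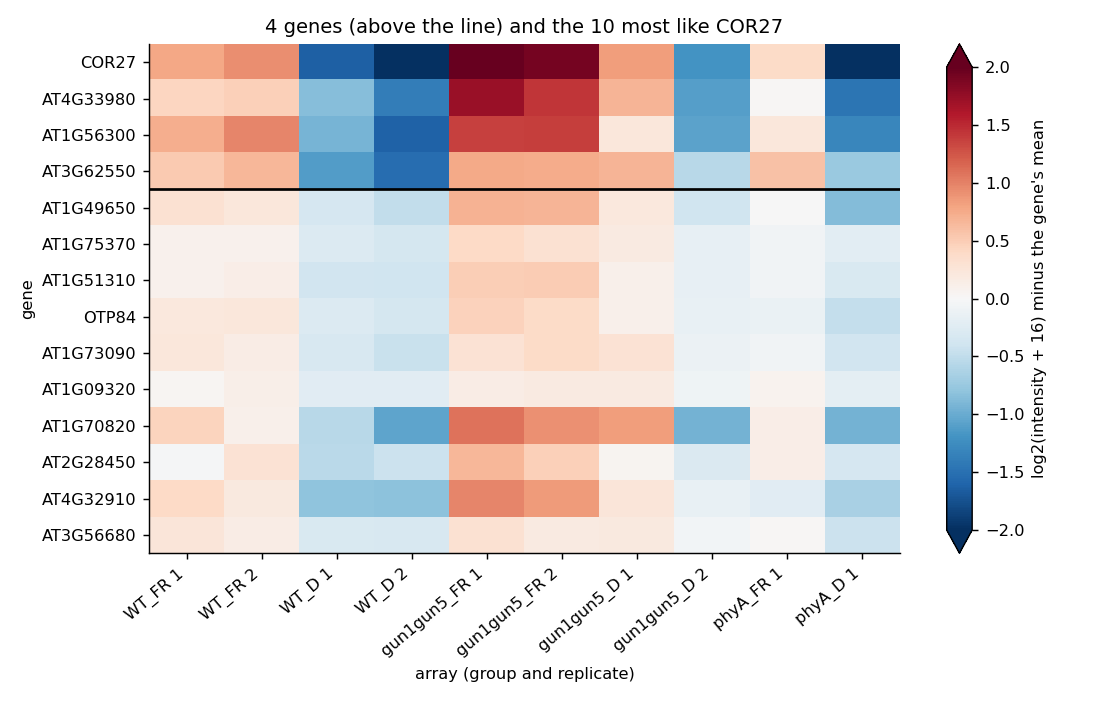
Log2(intensity + 16) minus the mean of each gene over the arrays, for the 4 genes above the line and the 10 single-gene probe sets most like COR27 below it, by array; red is above and blue below the mean. The signs mostly match down the columns, and the colours are paler below the line, where AT1G70820 has the widest range, 2.13.

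The genes next to the 4 on the chromosome were looked up in RefSeq's order after their values had been seen. AT5G42895 and AT5G42905, on either side of COR27, and AT3G62540, before AT3G62550, had no listed probe set and so no values. AT4G33985, which follows AT4G33980 without overlapping it, was dim and below the level filter, yet read 35.9 and 46.9 in WT_FR, 3.5 and 7.2 in WT_D, 25.8 and 22.7 in gun1gun5_FR, 29.1 and 1.9 in gun1gun5_D, 22.2 in phyA_FR and 4.4 in phyA_D. It was thus higher on every FR array than on every D array except gun1gun5_D replicate 1, and its gun1gun5_D replicates differed in the same direction, by 1.33 on the log2 scale, where replicate 2 read 1.9. AT4G33970, on the other side of AT4G33980, was dimmer still (3.3 to 13.9), with 3.3 and 4.9 in WT_FR, 9.8 and 7.8 in WT_D and a gun1gun5_D gap of 0.14. AT1G56310, after AT1G56300, read 16.1 to 31.6 and was not tested, with a gap of 0.22. AT1G56290, which overlaps AT1G56300 in RefSeq, and AT3G62560, which follows AT3G62550 without overlap, did not run with COR27, at r of -0.34 and -0.38.

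Other genes of the clock, of the cold response and of light signalling were taken from 3 lists of 111 genes, of which 14 had a named probe set and 13 were tested with limma over all tested probe sets. Of 5 clock genes tested in wild type, 0 rose and 2 fell after far-red light, where 9.72% of all tested probe sets rose and 12.6% fell. The clock genes had a median difference of -0.23. AT1G69570 (CDF5), a DOF factor that delays flowering, read 68.1 and 58.6 in WT_FR and 132.2 and 163.6 in WT_D, and fell by 1.04 ± 0.15 (limma adjusted p = 0.000938, n = 2 arrays a group). AT4G01280 (RVE5), a MYB-like factor related to the morning clock genes, fell by 0.53 ± 0.14 (limma adjusted p = 0.0244). The RVE5 call ended with no filter on low values (adjusted p = 0.0523), without WT_FR replicate 1 (-0.40) and without WT_D replicate 2 (-0.42). So few genes cannot be set apart from the 9.72% of all tested probe sets that rose. Of 42 clock, 34 cold and 35 light-signalling genes listed, only 5, 5 and 4 had a named probe set. CCA1, LHY, TOC1, ELF4 and LUX of the clock list had none, so they could not be compared with COR27. Since 8730 of the 22810 probe sets are not listed with a gene, a missing name does not show that the array left a gene out.

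GIGANTEA (GI), an evening gene of the clock, had differences of 0.31 ± 0.30 in wild type, -0.09 ± 0.30 in gun1gun5 and 0.64 in phyA (1 array a group) on the log2 scale, none past the threshold where tested. It read 368.6 and 202.1 in WT_FR, 302.3 and 154.8 in WT_D, 275.8 and 285.6 in gun1gun5_FR, 333.9 and 268.8 in gun1gun5_D, 206.0 in phyA_FR and 126.3 in phyA_D. Its groups overlapped in wild type, where replicate 1 was higher by 0.82 in WT_FR and 0.90 in WT_D on the log2 scale. In gun1gun5_D, where COR27 had its gap of 2.04, GI differed by 0.30. Of the list genes HYH (-0.78), BIC2 (-0.58) and LTI30 (-0.55) lay outside the central 95% of tested probe sets there, with replicate 2 the higher one.

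Of 4 cold genes tested in wild type, 1 rose and 0 fell, with a median difference of 0.43. ZAT10, a zinc-finger repressor induced by cold and other stresses, read 256.3 and 206.6 in WT_FR against 86.6 and 64.7 in WT_D. It rose by 1.44 ± 0.20 (limma adjusted p = 0.000884, n = 2), where the medium differed too. In gun1gun5, on a single medium, ZAT10 differed by 0.42 ± 0.20 and did not pass (limma adjusted p = 0.189). Its difference between the gun1gun5 and wild-type responses, -1.01 ± 0.29, did not pass either (limma adjusted p = 0.0966). COR15A, a chloroplast protein that guards membranes against freezing, read between 2.5 and 14.3 on the 10 arrays and was not tested. In wild type 4759 of the 13647 tested probe sets had an unadjusted limma p under 0.05. Of 4 light-signalling genes 0 passed in limma, and 0 had an unadjusted p under 0.05, with a median of -0.17. The brighter members were HYH, a bZIP factor of light responses, at -0.20 ± 0.22, and AT3G44450 (BIC2), an inhibitor of cryptochromes, at -0.35 ± 0.21.

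In gun1gun5, where 6.38% of tested probe sets rose and 8.06% fell, the tested clock genes again fell or did not pass: 0 of 5 rose and 3 fell, with a median of -0.51. CDF5 fell by 0.68 ± 0.15 (limma adjusted p = 0.0139), AT5G52660 (RVE6, of the same family as RVE5) by 0.60 ± 0.13 (adjusted p = 0.0118) and RVE5 by 0.51 ± 0.14 (adjusted p = 0.0407). All 3 calls ended when single arrays were left out: CDF5 without gun1gun5_FR replicate 1 (-0.54) or either of the gun1gun5_D arrays (-0.66 and -0.70), RVE6 without either of the gun1gun5_FR arrays (-0.56 and -0.65) or gun1gun5_D replicate 2 (-0.56), and RVE5 without the same 3 arrays (-0.50, -0.52 and -0.40). The RVE5 call also ended with no filter (adjusted p = 0.0867).

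The cold genes COR47 and LTI30 moved against COR27 in gun1gun5. COR47, a dehydrin of the cold response, read 461.9 and 459.3 in gun1gun5_FR against 1741.9 and 2149.5 in gun1gun5_D, and fell by 2.03 ± 0.15 (limma adjusted p = 5.07e-05, n = 2). The dehydrin LTI30, also called XERO2, read 186.9 and 206.0 against 322.0 and 479.7, and fell by 0.95 ± 0.19 (adjusted p = 0.0103). The LTI30 call was lost when gun1gun5_FR replicate 1 (-0.88) or 2 (-1.01) or gun1gun5_D replicate 2 (-0.67) was left out. Thus 0 of 4 cold genes rose and 2 fell, with a median of -0.59. Of 4 light-signalling genes 0 passed in limma and 0 had an unadjusted p under 0.05, where 4109 of the 13647 tested probe sets did. HYH was at -0.13 ± 0.22 and BIC2 at -0.27 ± 0.21.

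**Figure D5:**
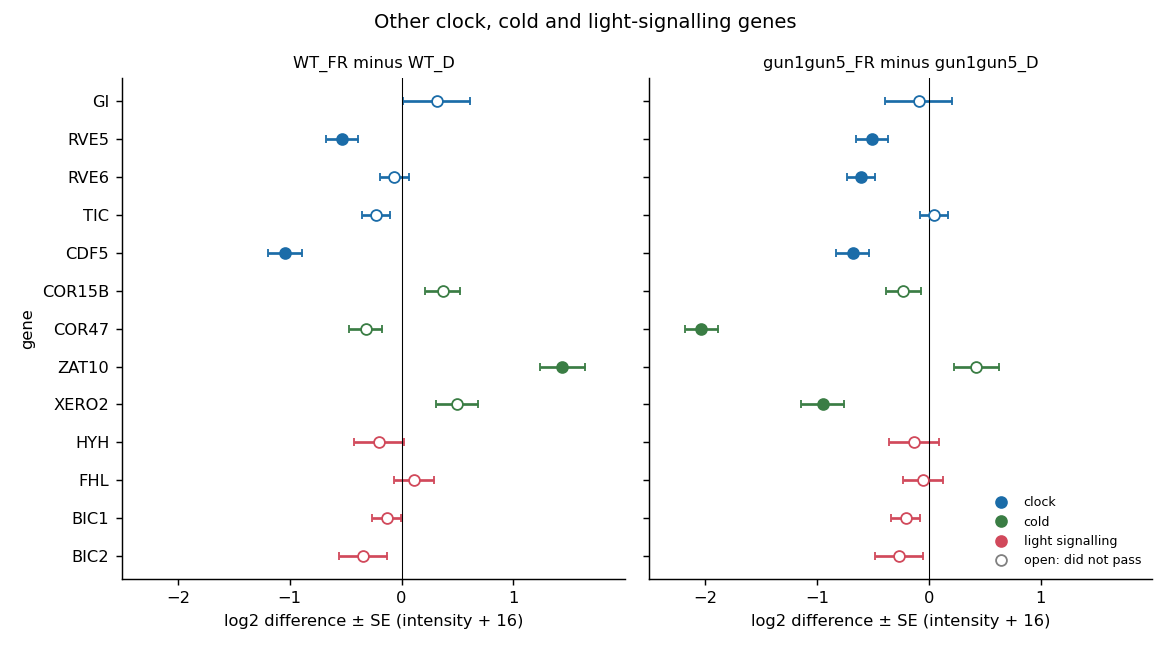
Log2 differences (intensity + 16) with SE of the 13 tested clock, cold and light-signalling genes after far-red light in wild type (left) and gun1gun5 (right); filled points passed limma's adjusted threshold. ZAT10 is the single filled point above 0, at 1.44 in wild type, and COR47 lies lowest in gun1gun5, at -2.03.

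When the gun1gun5 response was tested against the wild-type response, 0.791% of tested probe sets were called higher and 2.03% lower. Of the cold genes 2 of 4 had a lower response there, with a list median of -1.23. COR47 differed by -1.71 ± 0.21 (limma adjusted p = 0.00334), having read 1312.4 and 1216.8 in WT_FR and 1835.9 and 1362.8 in WT_D. LTI30 differed by -1.44 ± 0.27 (adjusted p = 0.0197), a call that ended with no filter (adjusted p = 0.0789) and without WT_D replicate 2 (-1.23) or either of the gun1gun5_FR arrays (-1.38 and -1.51). For COR27 the corresponding value was -0.53 ± 0.67. WT_D, with its 1.5% sucrose and the norflurazon of replicate 2, enters all these values, so genotype and medium cannot be told apart in them. Of 5 clock genes 0 passed in limma and 1 had an unadjusted p under 0.05, with GI at -0.40 ± 0.42 and TIC, a clock regulator, at 0.27 ± 0.18. In this comparison 2195 of the 13647 tested probe sets had an unadjusted limma p under 0.05. Of 4 light-signalling genes 0 passed and 0 had an unadjusted p under 0.05, with HYH at 0.08 ± 0.32 and BIC2 at 0.08 ± 0.30.

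Between gun1gun5_D and WT_D, where 4.06% of tested probe sets were called higher and 5.14% lower, 0 of the 13 list genes passed in limma. An unadjusted limma p under 0.05 was found for 5 of them, and for 3521 of the 13647 tested probe sets. GI stood at 0.44 ± 0.30, TIC at 0.01 ± 0.13, COR47 at 0.29 ± 0.15, LTI30 at -0.20 ± 0.19, HYH at -0.01 ± 0.22 and BIC2 at -0.61 ± 0.21, where COR27 stood at 1.66 ± 0.47. BIC2 passed without gun1gun5_D replicate 2 (-0.90, adjusted p = 0.0410). In phyA only 50 of the 13647 tested probe sets reached a 2-fold difference in either direction, and 0 of the 13 list genes did. GI, at 0.64, had the largest rise of the list genes, against 2.43 for COR27, which was chosen with its rise in phyA known.

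The arrays were alike in overall level, with medians of 35.6 to 40.4 after scaling by the authors to a trimmed mean of 100.0. The summed intensity of 6 green-tissue genes of 14 listed ran from 9240.9 to 9912.6 in WT_FR, 12255.9 to 13196.0 in WT_D, 11200.9 to 11512.6 in gun1gun5_FR and 14816.4 to 16358.2 in gun1gun5_D, with 13767.5 in phyA_FR and 14165.2 in phyA_D. The sum was thus lower in FR than in D in wild type, where the medium differed too, and in gun1gun5, opposite to COR27. In phyA the FR array was lower by less than the gap between the gun1gun5_D replicates. The part of these green-tissue genes in the differences of COR27 was not tested. Of 11 root genes 2 had a named probe set, PYK10 at 2150.1 to 3268.7 and EXPA7 at 28.0 to 49.2, and their sum was 2564.7 to 2709.4 in WT_FR, 2626.5 to 2846.7 in WT_D, 2193.6 to 2367.9 in gun1gun5_FR, 2820.5 to 3178.0 in gun1gun5_D, 3165.8 in phyA_FR and 3296.7 in phyA_D. None of the 8 marker genes read 0. In whole seedlings a smaller share of a cell type and less RNA per cell cannot be told apart.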

How the data were processed

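The authors deposited 1 table of linear probe-set intensity values, 1 column for each of the 10 arrays, with each array scaled to a common trimmed mean (2% left out at each end). Per the labels the arrays were Affymetrix ATH1. The summarisation software and detection calls are not given in the sources used here, so it is not known which low values were above background. Probe sets were named from the platform annotation and symbols taken from RefSeq (TAIR10.1). Of 22810 probe sets 13513 had 1 gene, 503 several and 8730 none listed, and 64 were controls. The names COR28, CDF5, RVE5, RVE6 and BIC2 are not in these tables and come from the literature.

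Values were taken as log2(intensity + 16). Probe sets above the 40th percentile of mean level (5.35) were tested, 13647 in all, 7379 with 1 gene. All 10 arrays entered 1 fit of 6 group means (limma 3.58.1, R 4.3.3, eBayes with trend, 4 residual and 6.30 prior degrees of freedom, two-sided, Benjamini-Hochberg adjustment, threshold 0.05). For phyA, with 1 array a group, a 2-fold difference was counted instead. The number of arrays limits the precision.

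The 4 genes and the lists were chosen with earlier results of these data known. Named by rule were the 4 genes, the 10 single-gene probe sets with the highest correlation with COR27, and from each list and comparison up to 4 called genes with the largest difference, or, with none called, the 2 with the highest mean level. The DnaJ and universal stress protein families were to be listed by RefSeq descriptions, which the table used here does not carry, so they were left out. GI beyond its named comparisons, COR15A and the chromosomal neighbours were chosen after their values were seen. The alternatives were pseudocounts of 1 and 64, quantile normalization, no filter, the replicate number as a block, Spearman in place of Pearson correlation, and leaving out each array. The fit was tested on simulated data.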

Additional observations from a re-analysis of the deposited data

Results flagged for a closer look

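The FR minus D differences of COR47 and LTI30 (XERO2) were unlike in gun1gun5 and wild type by limma's test of the difference itself. The log2 values were -1.71 for COR47 and -1.44 for LTI30. Both WT_D samples had 1.5% sucrose and replicate 2 norflurazon, so genotype and medium cannot be told apart here. The LTI30 call ended with no filter (limma adjusted p = 0.0789) and without WT_D replicate 2 or either of the gun1gun5_FR arrays. COR47 and LTI30 are cold-response genes that fell in gun1gun5, where COR27 rose.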

How the results depend on the processing

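The differences of the 4 genes kept their direction under every alternative run, apart from the difference between the gun1gun5 and wild-type responses, where COR27 ran from -1.55 to 0.49, AT4G33980 from -0.66 to 1.12 and AT1G56300 from -0.97 to 0.32 as single arrays were left out. The number of called probe sets, 3053 in wild type, 1970 in gun1gun5, 385 for the difference of responses and 1255 for gun1gun5_D against WT_D, ran from 1852 to 3071, 493 to 2156, 145 to 366 and 272 to 1489 as single arrays were left out. Without WT_D replicate 2 the wild-type count was 1852, and without gun1gun5_FR replicate 1 the gun1gun5 count was 493. With no filter the last 3 counts were 1251, 207 and 584, where more dim probe sets were tested. In phyA the 50 probe sets with a 2-fold difference in either direction became 125 with a pseudocount of 1, 12 with 64 and 78 with no filter. Of the 10 genes most like COR27, 2 stayed with Spearman's correlation, 9 with a pseudocount of 1, 8 after quantile normalization, and 5 to 8 when an array was left out. For genes that did not pass, left-out arrays turned the sign: GI ran from -0.85 to 0.047 for the difference of responses and -0.012 to 0.89 for gun1gun5_D against WT_D, TIC from -0.073 to 0.090 and LTI30 from -0.47 to 0.081 in the latter. HYH ran from -0.52 to 0.26 in gun1gun5, -0.31 to 0.46 for the difference of responses and -0.40 to 0.38 for gun1gun5_D against WT_D, where it was 0.013 after quantile normalization. BIC2 ran from -0.55 to 0.023 in gun1gun5 and -0.21 to 0.37 for the difference of responses. The causes were not tested.

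Samples with the same replicate number correlated between groups at 0.064 to 0.187 in their deviations, positive in all 6 pairs of groups but over 0.1 in 4, so the samples were not treated as paired. With the replicate number as a block the counts were 3417, 2362, 501 and 1637, BIC2 passed for gun1gun5_D against WT_D (-0.61, adjusted p = 0.0309), and no other named call changed. Calls on CDF5 and ZAT10 in wild type and both calls on COR47 held under every alternative run. Signal near or below 20, as for COR27 in WT_D replicate 2 and phyA_D, leaves the size of its folds uncertain.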
